A study of Homo sapiens with 8 samples.

Results

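The genes described here are 9 genes of the NRF2 pathway, the cell's main transcriptional response to oxidants and electrophiles: NFE2L2, KEAP1, NQO1, HMOX1, GCLC, GCLM, TXNRD1, SRXN1 and SLC7A11. They were chosen by gene symbol, and each matched 1 of the 60282 genes listed. RNA was measured in SK-UT-1, a human cell line established from a uterine leiomyosarcoma, which is a malignant tumour of the smooth muscle of the uterus. A total of 4 libraries came from cells given the vehicle, DMSO, and 4 from cells given TP-472, a small-molecule inhibitor of the bromodomain proteins BRD9 and BRD7, at 5 µM for 48 h. Both groups grew in the same serum-containing medium and carried no engineered allele, so the comparison asks how RNA levels differed after the inhibitor in 1 cell line at 1 dose and 1 time. The study's methods speak of biological replicates for its experiments as a whole. The labels number the libraries without saying whether each came from a separate culture, so the p-values measure the spread between these libraries.

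NFE2L2 encodes NRF2, a transcription factor that is made continuously and kept scarce by KEAP1, an adaptor that hands it to the CUL3 ubiquitin ligase for destruction. When oxidants or electrophiles modify KEAP1, NRF2 escapes, pairs with a small MAF protein and binds antioxidant response elements in its target genes. BACH1 occupies many of the same elements as a repressor. Because the control acts on NRF2 protein, its own RNA level is known to say little about its activity.

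The core of the antioxidant response element is written TGACNNNGC, where N is any base. It was searched on both strands of the RefSeq promoter windows on GRCh38.p14, which run from 250 bases before to 50 bases after each transcript start. Of the 9 genes, 7 have an entry in the table of windows used here, and HMOX1 and SLC7A11 were not searched. These letters stood in a window of 3 of the 7 (KEAP1, GCLM and TXNRD1), against 16.1% of 27305 genes with a window and 13.3% of 35116 windows. The windows of NFE2L2, NQO1, GCLC and SRXN1 did not hold these letters. Sequence outside the windows was not searched, so these genes may carry the letters elsewhere. The matches are shown because they are where the windows of the 7 genes searched carry the letters that NRF2 is known to read. Each stretch of 29 bases is written on the strand of its gene, with the 9 matching bases in capitals. A match that begins with GC lies on the opposite strand. KEAP1 has 2 windows: its matches are counted from the start in chr19:10502722-10503021, and the window at chr19:10503307-10503606 held none.
KEAP1, 54 bases before the start, chr19:10502807-10502835, minus strand: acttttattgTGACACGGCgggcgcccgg
KEAP1, 31 bases before the start, chr19:10502784-10502812, minus strand: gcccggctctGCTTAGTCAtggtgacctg
GCLM, 34 bases before the start, chr1:93909446-93909474, minus strand: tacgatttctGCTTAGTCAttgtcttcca
TXNRD1, 99 bases before the first start, chr12:104215670-104215698, plus strand: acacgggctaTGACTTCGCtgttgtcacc
TXNRD1, 8 bases before the first start, chr12:104215761-104215789, plus strand: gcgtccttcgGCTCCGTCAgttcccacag
TXNRD1, 102 bases before the second start, chr12:104286920-104286948, plus strand: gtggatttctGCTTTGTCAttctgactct
The match in GCLM and the second match in KEAP1 hold the same 9 bases, while the 3 matches in TXNRD1 differ from each other. Among the other pathway genes described below, 23 of 88 with a window (26.1%) held the letters. Of those with a window, 5 of the 15 called higher with TP-472 and 1 of the 8 called lower held them. Whether the letters and the calls go together was not tested. A match of this length is a description of the sequence and not evidence of binding, which was not measured in these libraries.

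Library totals ran from 32574716 to 36634184 estimated counts with vehicle and from 36246466 to 38545695 with TP-472. Genes with a count numbered 23333 to 23943 with vehicle and 25386 to 26215 with TP-472. Mitochondrial counts made up 0.2855% to 0.4236% with vehicle and 0.1988% to 0.2824% with TP-472. The part of these differences in the changes described below was not tested. Levels are given as CPM, that is, counts per 1e6 counts of a library, after TMM scaling, a correction for differences in the make-up of the libraries. All 9 genes passed the filter of more than 1 CPM in at least 4 of 8 libraries, as 14073 genes did. Counts behind their levels ran from 717 for GCLC in vehicle replicate 3 to 38561 for TXNRD1 in TP-472 replicate 4. The spread between libraries includes the error of counting. A gene is called differentially expressed where edgeR's quasi-likelihood test gave p under 0.05 after Benjamini-Hochberg adjustment over all genes tested and the levels differed by more than 1.5 times. All fold changes below are TP-472 over vehicle on the log2 scale.

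The cells expressed smooth muscle and mesenchymal markers in part. In vehicle libraries the mean was 160 CPM for ACTA2, 200 CPM for CALD1, 32.3 CPM for TAGLN and 2538 CPM for VIM. The smooth muscle myosin gene MYH11 and the smooth muscle regulator MYOCD were near 0, at 0.0070 and 0.042 CPM, and DES was at 3.25 CPM. Markers of immune and endothelial cells were at or near 0, with PTPRC and CD3E at 0 in the vehicle libraries, apart from CD68 at 7.53 CPM and CD14 at 0.584 CPM. Of the epithelial markers, EPCAM and CDH1 were at 0.731 and 0.417 CPM, while the keratins KRT19, KRT18 and KRT8 were at 8.88, 7.39 and 1.999 CPM. With TP-472, 2 of the 6 smooth muscle markers tested were called lower (TAGLN and DES, the latter to 0.629 CPM), and ACTA2, CALD1, CNN1 and SMTN were not called. Of the 4 mesenchymal markers 3 were called lower (COL1A1, COL1A2 and PDGFRB), with COL1A2 going from 589 to 98.8 CPM, and VIM was not called. KRT18 was called higher (15.6 CPM), KRT19 lower (4.93 CPM) and KRT8 not. These calls held without vehicle replicate 3, where ACTA2 was also called lower (log2 fold change -0.59) and COL1A1 stood at -1.46 in place of -2.35. The part of these shifts in the changes described below was not tested. In RNA from whole cultures, a change in the share of cells of a kind and a change in RNA per cell cannot be told apart.

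One library stood apart. Vehicle replicate 3 had a median Spearman correlation of 0.914 with the other vehicle libraries, against 0.988 to 0.989 for those 3 and 0.993 to 0.997 among the TP-472 libraries. Its levels followed the GC content of the genes, with a slope of 0.66 on the log2 scale for each 10% of GC, whereas the other 7 libraries had slopes from -0.18 to -0.03. Relative to the other vehicle libraries, genes under 40% GC had a median of -0.76 and genes over 60% GC a median of 1.06 on the log2 scale. Of the 9 genes, 8 lay on the side that genes of their GC content took. SLC7A11 (35.4% GC), GCLM (37.3%), GCLC (44.3%), TXNRD1 (44.8%) and NQO1 (46.0%) stood at 52.7%, 56.9%, 58.5%, 59.0% and 60.1% of their mean in the other vehicle libraries. KEAP1 (60.3% GC) and HMOX1 (58.1% GC) stood at 132% and 154%. SRXN1 went against the trend: at 53.6% GC it stood at 73.2%, a log2 ratio of -0.45, whereas genes of 50 to 55% GC had a median of 0.33. NFE2L2, at 45.6% GC, stood at 85.5%. The changes of the 9 genes are therefore given with this library and without it, and so are the counts over lists. For other genes the value without it is given where the call changed or a log2 fold change printed here moved by more than 1.5 times, and for some others.

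**Figure D1:**
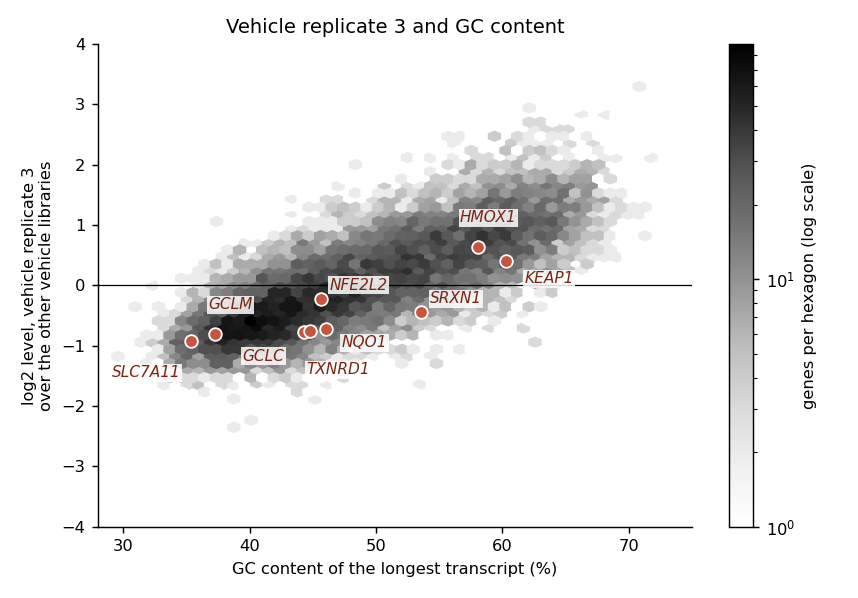
The log2 ratio of vehicle replicate 3 to the mean of the other vehicle libraries (y axis) against the GC content of each gene's longest transcript in percent (x axis), with all genes tested as grey hexagons shaded by number and the 9 genes as red points. The ratio rises with GC content, and the 9 genes run from SLC7A11 at -0.92 to HMOX1 at 0.63.

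With TP-472, HMOX1, SRXN1 and TXNRD1 rose, NQO1 fell, and NFE2L2, KEAP1, GCLC, GCLM and SLC7A11 were not differentially expressed. The 3 genes that rose encode the enzyme that degrades heme, the enzyme that repairs overoxidized peroxiredoxin, and cytosolic thioredoxin reductase. They increased by 3.09, 2.13 and 1.92 times. NQO1, the quinone reductase often used as a readout of NRF2, was at 62.4% of its vehicle level. Thus 4 of the 9 genes (44.4%) were differentially expressed, against 26.9% of all 14073 genes tested. In all genes, 12% were called higher and 14.9% lower. The median change of the 9 was 0.38, beside -0.03 over all genes. The groups did not overlap for 6 of the 9, and they did not overlap for 45.4% of all genes. Leaving out vehicle replicate 3 gave the same calls, with a median of 0.22 for the 9 genes.

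**Figure D2:**
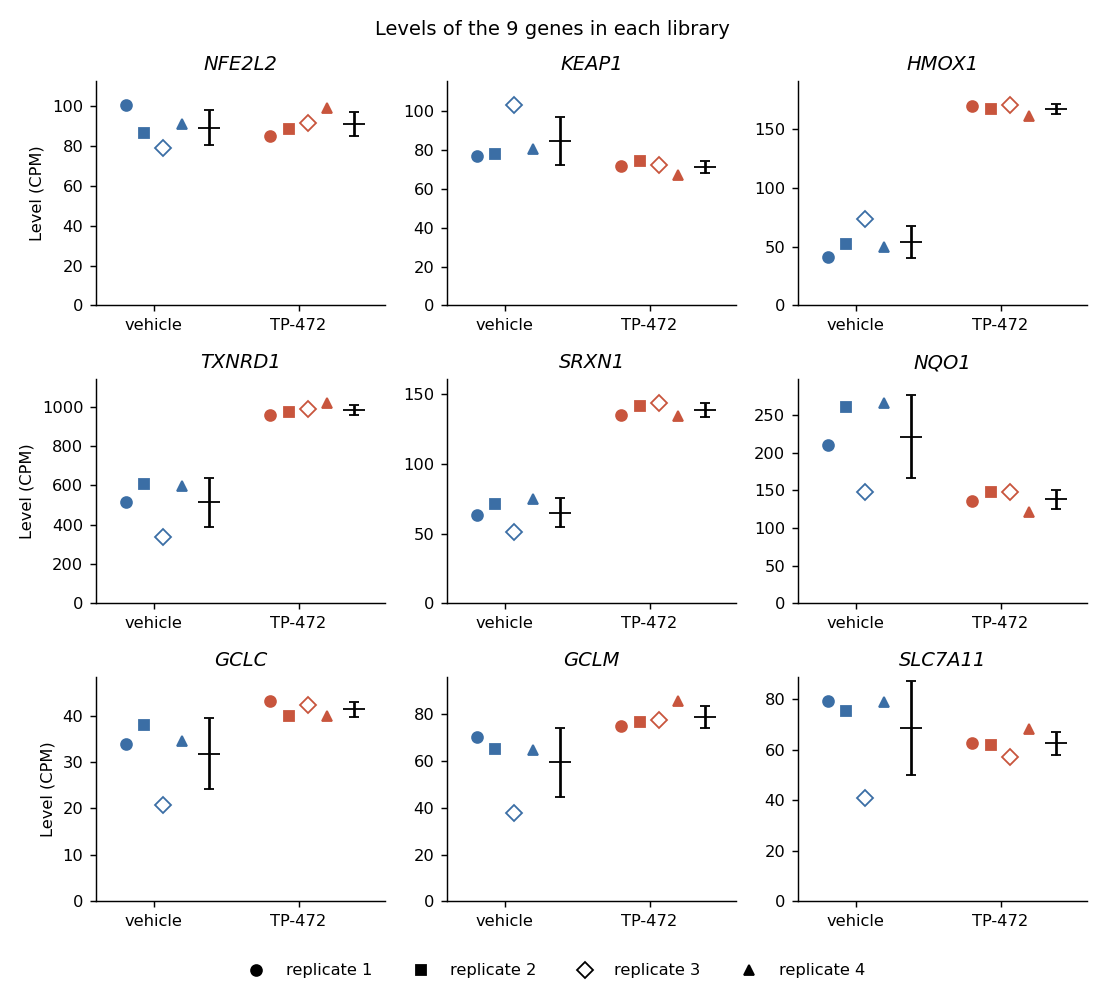
Levels in CPM (y axis, from 0) of the 9 genes in each of the 4 vehicle and 4 TP-472 libraries, with a marker for each replicate number, replicate 3 as an open diamond, and a black bar at the mean with its SD. HMOX1, SRXN1 and TXNRD1 are higher in every TP-472 library, and the open diamond lies apart from the other vehicle libraries in most panels.

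The regulators are described first. NFE2L2 (ENSG00000116044.16) lies on chr2:177227595-177392697, minus strand, in GRCh38, the build used for every position of a gene here. Its levels were 100.4, 86.2, 79.0 and 90.8 CPM in vehicle replicates 1 to 4 and 84.8, 88.2, 91.6 and 98.9 CPM in TP-472 replicates 1 to 4. The groups overlapped over most of their range, so no difference in NFE2L2 RNA was detectable. Its log2 fold change was 0.03 (SE 0.11, adjusted p = 0.850, edgeR), and without vehicle replicate 3 it was -0.03. An exact two-sided permutation test gave p = 0.743. The gene's annotated span overlaps that of AGPS on the opposite strand, which had up to 4562 counts. The strand setting of the counting is not given in the sources used here. AC019080.1, which overlaps NFE2L2 on the same strand, had up to 147 counts, or 5.38% of the lowest NFE2L2 count.

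KEAP1 (ENSG00000079999.14, chr19:10486120-10503741, minus strand) encodes the adaptor that holds NRF2 low. Vehicle libraries had 76.8, 78.0, 103 and 80.5 CPM, and TP-472 libraries 71.6, 74.2, 72.1 and 67.3 CPM. Every TP-472 library lay below every vehicle library, by a narrow margin apart from vehicle replicate 3, which was the highest. The log2 fold change was -0.25 (SE 0.12), and the gene was not differentially expressed (adjusted p = 0.127, edgeR). The exact permutation test gave p = 0.0286, the smallest that 4 libraries against 4 allow. Without vehicle replicate 3 the difference was -0.14 (adjusted p = 0.0628), and it turned to 0.07 when the trend of each library with GC content was removed, so its direction is uncertain.

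Next come the thioredoxin genes. TXNRD1 (ENSG00000198431.16, chr12:104215779-104350305, plus strand) encodes the selenoenzyme that uses NADPH to keep cytosolic thioredoxin reduced. Its levels were 514, 609, 338 and 596 CPM with vehicle and 959, 975, 987 and 1019 CPM with TP-472. The TP-472 libraries were close to one another, and the lowest lay well above the highest vehicle library. Its log2 fold change was 0.94 (SE 0.18, adjusted p = 0.00481, edgeR). Without vehicle replicate 3, the lowest of the 8 libraries, it was 0.78 (adjusted p = 4.17e-05). EID3, which lies within TXNRD1 on the same strand, had up to 707 counts, or 6.05% of the lowest TXNRD1 count.

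SRXN1 (ENSG00000271303.2, chr20:646615-653370, minus strand) encodes sulfiredoxin, which restores peroxiredoxins whose active cysteine has been oxidized to sulfinic acid. Levels were 63.6, 71.2, 51.0 and 74.4 CPM with vehicle and 135, 142, 143 and 134 CPM with TP-472. All 4 TP-472 libraries were above all 4 vehicle libraries, with a wide gap. The log2 fold change of 1.09 (SE 0.13, adjusted p = 5.22e-04, edgeR) became 0.99 without vehicle replicate 3. A gene that overlaps SRXN1 on the same strand, AL121758.1, had 0 counts in every library.

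HMOX1 (ENSG00000100292.17, chr22:35380361-35394214, plus strand) encodes heme oxygenase 1, which opens heme to biliverdin, carbon monoxide and iron, and which BACH1 is known to repress. It had 41.5, 51.8, 73.3 and 49.5 CPM in the vehicle libraries and 169, 167, 170 and 161 CPM in the TP-472 libraries. The TP-472 libraries formed a tight set with more than double the level of the highest vehicle library. That highest vehicle library was replicate 3. HMOX1 had the largest change of the 9 genes, 1.63 on the log2 scale (SE 0.17, adjusted p = 2.71e-04, edgeR), and 197 of the 14073 genes tested (1.4%) increased more. Without vehicle replicate 3 the change was 1.81 (adjusted p = 6.13e-07).

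NQO1 (ENSG00000181019.13, chr16:69706996-69726951, minus strand) encodes a quinone reductase that takes electrons from NADH or NADPH. Its levels were 210.5, 260.0, 147 and 266 CPM with vehicle and 136, 147, 147 and 121 CPM with TP-472. In vehicle replicate 3 the level was 147.35 CPM, just under the 147.41 CPM of TP-472 replicate 3, and the other 3 vehicle libraries lay above all TP-472 libraries. Its log2 fold change was -0.68 (SE 0.18, adjusted p = 0.0204, edgeR), and the exact permutation test gave p = 0.0571. Without vehicle replicate 3 the fall was larger, at -0.83 (adjusted p = 1.05e-04). The call was lost without TP-472 replicate 1 (-0.68, adjusted p = 0.0558) or 4 (-0.62, adjusted p = 0.0600), and without vehicle replicate 4 (-0.58, adjusted p = 0.0468) the fold change dropped under the limit. It was also lost with replicate number as a block (-0.65, adjusted p = 0.0582).

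GCLC and GCLM make the catalytic and modifier subunits of glutamate-cysteine ligase, the rate-limiting enzyme of glutathione synthesis. GCLC (ENSG00000001084.13, chr6:53497341-53616970, minus strand) had 33.9, 37.997, 20.8 and 34.6 CPM with vehicle and 43.1, 39.97, 42.4 and 39.8 CPM with TP-472. GCLM (ENSG00000023909.10, chr1:93885205-93909456, minus strand) had 70.2, 64.9, 37.8 and 64.5 CPM with vehicle and 75.1, 76.6, 77.5 and 85.7 CPM with TP-472. For both, the 4 TP-472 libraries were all above the 4 vehicle libraries, and vehicle replicate 3 was far below the rest. Neither was differentially expressed. The log2 fold change was 0.38 (SE 0.18, adjusted p = 0.121, edgeR) for GCLC and 0.41 (SE 0.18, adjusted p = 0.107) for GCLM. Without vehicle replicate 3 the differences shrank to 0.22 and 0.24, while the adjusted p-values came to 0.0178 and 0.0116. The fold change stayed under the limit in both fits, so the differences in these subunits were small and their size rested in large part on 1 library.

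SLC7A11 (ENSG00000151012.13, chr4:138164097-138242349, minus strand) encodes the light chain of the cystine-glutamate exchanger, which imports the cystine used for glutathione. It had 79.2, 75.3, 41.0 and 78.9 CPM with vehicle and 62.4, 61.9, 57.0 and 68.3 CPM with TP-472. Vehicle replicate 3 was the lowest of all 8 libraries, whereas the other 3 vehicle libraries were above every TP-472 library. With all libraries the log2 fold change was -0.14 (SE 0.20, adjusted p = 0.608, edgeR), and without vehicle replicate 3 it was -0.32 (adjusted p = 0.00338), still within the limit on the fold change. Its heavy chain partner SLC3A2, which was named after its values were seen, differed by 0.45 on that scale (adjusted p = 0.0185) and was not called for its fold change.

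**Figure D3:**
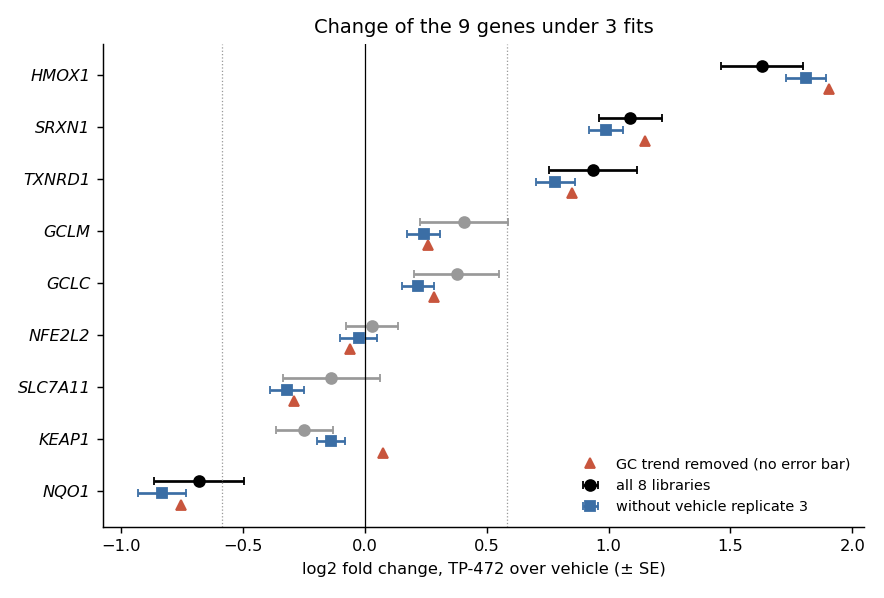
Log2 fold change of the 9 genes, TP-472 over vehicle (x axis), from all 8 libraries (circles with SE, black where differentially expressed and grey otherwise), without vehicle replicate 3 (squares with SE) and with the GC trend of each library removed (triangles, no error bar), with dotted lines at a fold change of 1.5. HMOX1, SRXN1, TXNRD1 and NQO1 lie beyond the dotted lines in all 3, while KEAP1 and NFE2L2 change sign between them.

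The spread between TP-472 libraries was narrow. For TXNRD1 the mean was 514 ± 125 CPM with vehicle and 985 ± 25.4 CPM with TP-472 (SD, n = 4 each). HMOX1 went from 54.0 ± 13.6 to 167 ± 3.99 CPM and SRXN1 from 65.0 ± 10.4 to 138 ± 4.76 CPM. NQO1 went from 221 ± 54.9 to 138 ± 12.5 CPM. In all 9 genes the SD was larger in the vehicle group when vehicle replicate 3 was included. Without it the vehicle SD was below that of TP-472 for KEAP1 (1.85 against 2.90 CPM), GCLM (3.20 against 4.73 CPM) and SLC7A11 (2.15 against 4.63 CPM).

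Divided by the length of their exons, the levels can be set beside each other. The order of the mean levels per kb with vehicle was TXNRD1 (86.3 ± 20.9 CPM per kb), NQO1 (70.7 ± 17.6), HMOX1 (27.8 ± 7.00), SRXN1 (24.1 ± 3.85), KEAP1 (22.9 ± 3.38), NFE2L2 (16.3 ± 1.64), GCLM (11.0 ± 2.69), SLC7A11 (7.11 ± 1.92) and GCLC (4.52 ± 1.08). The ranges of TXNRD1 and NQO1 overlapped over the vehicle libraries, as did those of GCLM and SLC7A11 and of SLC7A11 and GCLC, but the first of each pair was higher in all 4 libraries and the ranges did not overlap without vehicle replicate 3. SRXN1 was above KEAP1 in 3 of the 4 libraries, with ranges that overlapped only with vehicle replicate 3. HMOX1 and SRXN1 were not set apart: HMOX1 was higher in 2 of the 4 libraries, and their ranges overlapped with and without vehicle replicate 3. With TP-472, TXNRD1 stood at 165 ± 4.26 CPM per kb, followed by HMOX1 (86.0 ± 2.06), SRXN1 (51.3 ± 1.76) and NQO1 (44.1 ± 4.002). The mean levels of the other 5 had the same order as with vehicle. Among these, the ranges of NFE2L2 (15.6 to 18.1) and GCLM (13.9 to 15.8) overlapped with TP-472. So did those of SLC7A11 (5.91 to 7.08) and GCLC (5.66 to 6.13). NQO1, next to TXNRD1 in the order with vehicle, thus stood below HMOX1 and SRXN1 with TP-472. Exon length was taken from all annotated exons of a gene, which need not be the ones used in these cells.

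**Figure D4:**
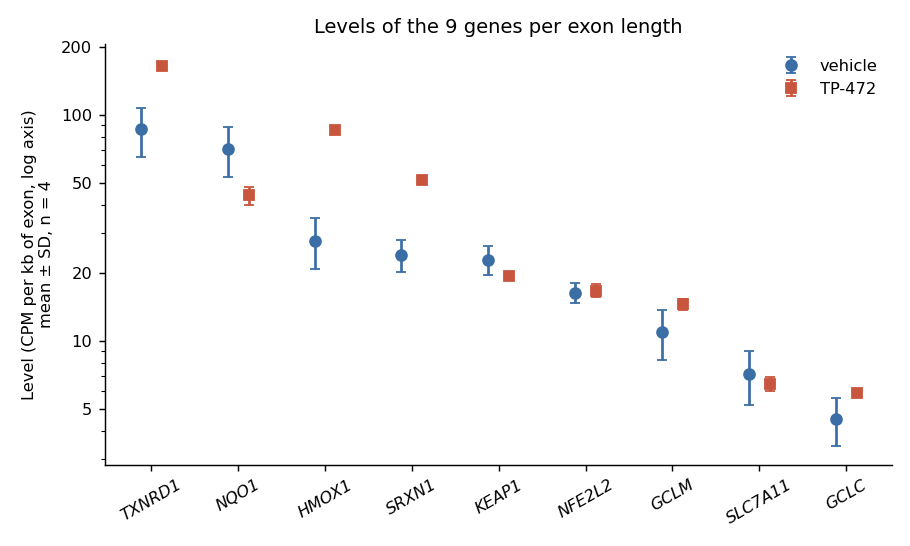
Mean level of the 9 genes in CPM per kb of exon (log axis) with vehicle (circles) and TP-472 (squares), with the SD over 4 libraries, in the order of the vehicle means. The level with TP-472 reaches 165 CPM per kb for TXNRD1, and NQO1 is the only one of the first 4 genes whose level is lower with TP-472.

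A further 106 genes of the pathway on 7 lists were examined, of which 94 were tested. A total of 16 were differentially expressed and higher, and 9 lower, which is 26.6% of the 94 and close to the 26.9% of all genes. Their median change was -0.01. Without vehicle replicate 3, 13 were higher and 7 lower, and 17 genes were called both ways, each in the same direction. Without TP-472 replicate 2, 5 were lower in place of 9. The pathway around the 9 genes therefore held genes that moved both ways, in about the share found among all genes.

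Of 10 partners and regulators of NRF2, 2 rose, by edgeR, DESeq2 and limma alike, and 4 were higher at an unadjusted p under 0.05. None fell by any of the 3 tools or at an unadjusted p under 0.05 (edgeR), and edgeR also called 2 higher and none lower without vehicle replicate 3. MAFF, a small MAF protein that can pair with NRF2, had 5.02, 6.21, 10.1 and 7.14 CPM with vehicle and 20.4, 21.0, 21.4 and 19.3 CPM with TP-472. The groups were far apart (log2 fold change 1.53, adjusted p = 9.61e-04, edgeR), and vehicle replicate 3 was the highest of its group. SQSTM1, the autophagy receptor p62 that binds KEAP1, rose from 175 ± 49.8 to 270 ± 19.1 CPM (log2 fold change 0.63, adjusted p = 0.0271). Its groups overlapped, with 248 CPM in vehicle replicate 3 and 244 CPM in TP-472 replicate 4. The exact permutation test gave p = 0.0571 for SQSTM1, and without vehicle replicate 3 its change was 0.84. The small MAF gene MAFG, the repressor gene BACH1 and the ligase gene CUL3 were not called, with differences of 0.41 (adjusted p = 0.0324), 0.38 (adjusted p = 0.0789) and 0.30 (adjusted p = 0.175). These were 0.50, 0.25 and 0.20 without vehicle replicate 3.

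Of 23 glutathione enzymes tested, 4 rose and 2 fell, and 3 rose and 3 fell without vehicle replicate 3. With all libraries DESeq2 called 3 lower and limma 1. GLRX2, mitochondrial glutaredoxin, doubled from 14.6 ± 2.97 to 29.3 ± 1.69 CPM (log2 fold change 1.00, adjusted p = 0.00203, edgeR), and GLRX3, an iron-sulfur glutaredoxin, rose from 102 ± 30.02 to 187 ± 13.4 CPM (0.88, adjusted p = 0.0120). GLRX, the cytosolic glutaredoxin, rose by 0.62 (adjusted p = 0.0352), and by 0.49, under the limit, without vehicle replicate 3. MGST1, a membrane-bound glutathione transferase, rose by 1.06 from a low level of 1.96 ± 0.655 CPM. The 2 that fell were also low. GSTM4, a glutathione transferase of a family whose close copies can share reads, changed by -0.76 (adjusted p = 0.00976). GGT7, of the gamma-glutamyltransferase family, changed by -1.06, and by -0.55 without vehicle replicate 3, where its level was 14.6 CPM beside 4.74 to 5.76 CPM in the other vehicle libraries. GPX7, a glutathione peroxidase of the endoplasmic reticulum, and GSTA4, a glutathione transferase, were called lower only without that library, at -0.61 and -0.78 (adjusted p = 0.00698 and 3.43e-04), and stood at -0.44 and -0.56 with it. Both were named after their values were seen.

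Among the 20 thioredoxin and peroxiredoxin genes, 4 rose and 1 fell. TXNIP, which binds and inhibits thioredoxin, had 68.6, 84.6, 51.8 and 81.4 CPM with vehicle and 179, 185, 181 and 182 CPM with TP-472. Its log2 fold change was 1.34 (adjusted p = 4.34e-04, edgeR), the largest of this list, so the RNAs of the thioredoxin inhibitor and of thioredoxin reductase were both higher. PRDX4, the peroxiredoxin of the endoplasmic reticulum, rose by 0.76, and the thioredoxin-related genes TXNDC17 and TXNL1 by 0.86 and 0.60 (adjusted p = 0.0130, 0.0285 and 0.0348). The change of TXNL1 was 0.43, under the limit, without vehicle replicate 3. SESN2, another sestrin gene, named after its values were seen, then had a change of 0.59 and was called (adjusted p = 1.36e-04), against 0.19 with all libraries, so the list again had 4 higher and 1 lower. SESN3, a stress-induced sestrin, fell from 350 ± 83.7 to 191 ± 12.8 CPM (log2 fold change -0.87, adjusted p = 0.00670).

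None of the 6 tested genes for removal of superoxide and peroxide was called by edgeR, where 3 had an unadjusted p under 0.05. DESeq2 called 1 of them lower and limma 1 higher, and edgeR called none without vehicle replicate 3. The nearest to the limit was SOD2, the mitochondrial superoxide dismutase, with 103 CPM with vehicle and 153 CPM with TP-472 (log2 fold change 0.58, adjusted p = 0.0109). CCS, another gene of this list, was at 27.9 and 19.9 CPM (-0.48, adjusted p = 0.0408). CAT, catalase, was at 94.8 and 73.2 CPM (-0.37, adjusted p = 0.0519). SOD2, CCS and CAT were named after their values were seen.

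The genes of NADPH supply had the lowest median of the 7 lists, -0.43 with all libraries and -0.21 without vehicle replicate 3. Of 9 tested, 3 fell, and none rose by edgeR, DESeq2 or limma, with 1 higher at an unadjusted p under 0.05. IDH2, the mitochondrial NADP-dependent isocitrate dehydrogenase, fell from 83.2 ± 13.4 to 37.99 ± 3.70 CPM (log2 fold change -1.13, adjusted p = 5.89e-04, edgeR). NNT, the transhydrogenase of the inner mitochondrial membrane, fell from 85.9 ± 18.5 to 43.8 ± 1.14 CPM (-0.97, adjusted p = 0.00248). Both are mitochondrial sources of NADPH, and they were the 2 genes of the list called without vehicle replicate 3 (-1.01 and -1.12).

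For detoxification and export, 3 of 16 tested rose and 2 fell. OSGIN1, a growth inhibitor induced by oxidative stress, rose by 1.06 (adjusted p = 0.0117, edgeR), and by 1.37 without vehicle replicate 3, and the drug and conjugate exporters ABCC2 and ABCC4 rose by 1.07 and 0.67 (adjusted p = 0.00384 and 0.00823). PIR, an iron-binding nuclear protein, fell by 0.97 on the log2 scale (adjusted p = 0.0135) and AKR1C1, an aldo-keto reductase with near-identical copies, by 0.63 (adjusted p = 0.0307). Apart from ABCC4, at 35.4 CPM with vehicle, these genes were below 12 CPM on average in both groups. ABCC4 stood at 0.55 and AKR1C1 at -0.43 without vehicle replicate 3, both under the limit on the fold change, which left 2 higher and 1 lower.

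Heme and iron genes completed the lists, with 3 of 10 higher and 1 lower. TFRC, the transferrin receptor, had 248, 282, 158 and 290.4 CPM with vehicle and 668, 670.3, 672 and 702 CPM with TP-472. All TP-472 libraries were more than double the highest vehicle library (log2 fold change 1.47, adjusted p = 7.07e-04, edgeR). HMOX2, the constitutive heme oxygenase, rose from 31.7 ± 2.40 to 53.0 ± 4.11 CPM (0.74, adjusted p = 0.00125), and NCOA4, the receptor for autophagy of ferritin, by 0.63 (adjusted p = 0.0315). SLC48A1, a heme transporter, fell by 0.59 on the log2 scale (adjusted p = 0.0156), a call that DESeq2 and limma did not make. NCOA4 stood at 0.46 and SLC48A1 at -0.51 without vehicle replicate 3, both under the limit, which left 2 higher and none lower. The ferritin subunits FTL and FTH1, which are known NRF2 targets, were named after their values were seen. They had log2 fold changes of -0.42 and -0.72 and were not called (adjusted p = 0.0765 and 0.0967). Their values without vehicle replicate 3 were smaller, -0.27 and -0.33.

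**Figure D5:**
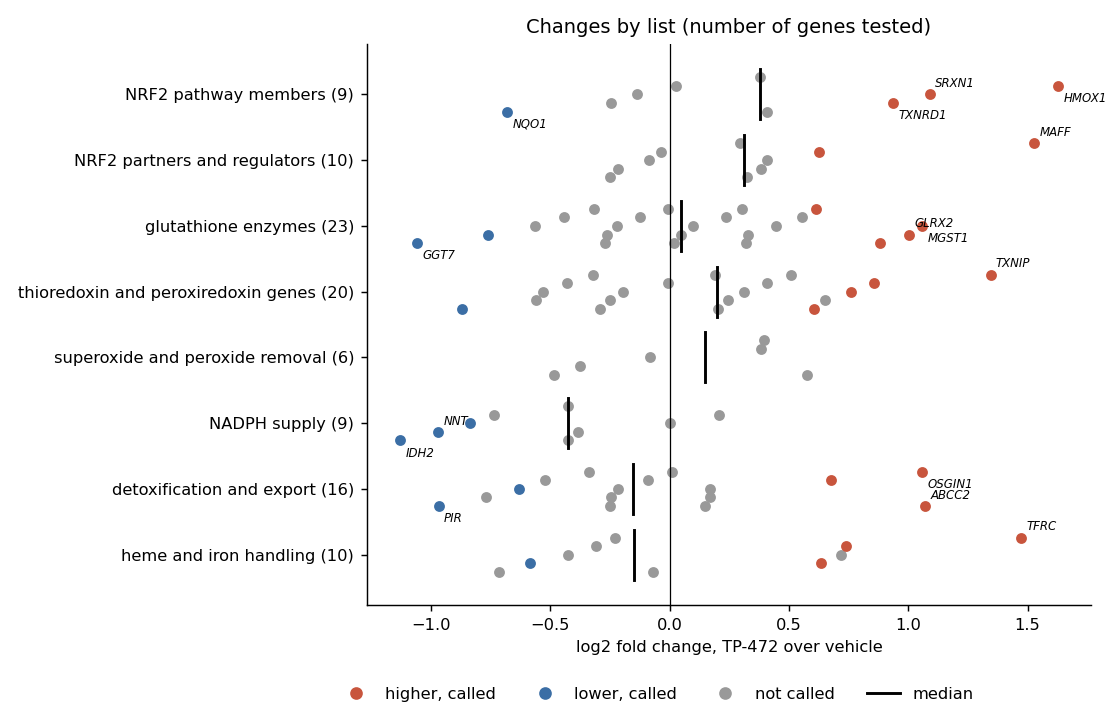
Log2 fold change, TP-472 over vehicle (x axis), of each tested gene of the 9 members and of the 7 other lists (rows, with the number tested), in red where called higher, blue where called lower and grey otherwise, with a black bar at the median. Called genes lie on both sides of 0 in most rows, and the NADPH row has the lowest median.

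The genes whose levels followed NFE2L2 most closely over the 8 libraries were SENP1 (Pearson r = 0.979), AC067968.1 (0.978), AC015712.2 (0.960), AC025031.4 (0.956) and PJVK (0.954). None of the 5 was differentially expressed, with adjusted p-values from 0.644 to 0.966 (edgeR). The values of r without vehicle replicate 3 were 0.965, 0.966, 0.937, 0.987 and 0.938 in the same order. The 5 genes were taken from all genes tested as the highest, so the values are a description.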

How the data were processed

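SK-UT-1 cells were given vehicle or 5 µM TP-472 for 48 h (4 libraries each). The values deposited by the authors are estimated counts: reads were assigned to transcripts with Salmon 1.4.0, per the labels on GRCh38, and the paper's methods give summation by gene with tximport and GENCODE release 34. They are neither normalized nor filtered, and not all of them are whole numbers. The labels and the methods name different TruSeq kits.

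Here counts were rounded, genes with over 1 CPM in at least 4 of 8 libraries were kept (14073 of 60282), libraries were scaled by TMM, and TP-472 was tested against vehicle in edgeR 4.0.16 under R 4.3.3 (quasi-likelihood F test, no further terms). Single genes also had an exact two-sided permutation test over the 70 assignments of libraries. CPM for correlations were on the log2 scale with a prior count of 2. The edgeR fit and call were also run on simulated counts, which were drawn without a GC trend in any library. The pair of libraries most alike within a group had a mean chi-square of 12.8 per gene, far above the value of 1 that counting error alone would give.

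The 9 genes, the lists and the tests were chosen with earlier results of these data known. Named genes are the 9, the called genes of each list (at most 4 a direction, by size of change), CUL3, MAFG and BACH1, and the 5 genes most correlated with NFE2L2. Exceptions are marked. The values of 1 listed gene are not reported here, although counts of calls and medians include it. Of 106 listed genes, 12 were under the filter and not tested. GGT1 and SOD2 stand on 2 rows each, of which 1 was used. Positions, exon lengths and GC content are from GENCODE release 29. Alternatives were DESeq2 1.42.0, limma 3.58.1 (voom), other scalings and filters, a robust fit, replicate number as a block, no limit on the fold change and each library left out. Removal of the GC trend was added after seeing the data. The precision is that of the spread between libraries, which includes counting error. Vehicle replicate 3 has a large part in that spread. Without this library the SE of HMOX1 went from 0.168 to 0.0824 and that of SLC7A11 from 0.200 to 0.0687.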

Additional observations from a re-analysis of the deposited data

Results flagged for a closer look

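In groups of 4 libraries, a highest or lowest value was marked where its gap to the nearest other, as a share of the range, exceeded 0.829. Of 78 groups examined, 10 did, where chance alone would mark about 5% of independent groups. These groups come from the same libraries and are not independent, so the count does not measure an excess.

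In 8 of the 10 the library was vehicle replicate 3. It had the highest slope of level with GC content, with a gap of 0.914 of the range. It was the highest vehicle library for KEAP1 (0.863), AKR1C1 (0.879) and GGT7 (0.896), and the lowest for SLC7A11 (0.899), NNT (0.829), TXNL1 (0.959) and BACH1 (0.865). Of the 3 genes it was highest in, GC content was 60.3% for KEAP1, 61.2% for GGT7 and 42.4% for AKR1C1. Of those it was lowest in, GC content was 35.4% for SLC7A11, 39.5% for NNT, 38.2% for TXNL1 and 38.6% for BACH1. Without this library GGT7, TXNL1 and AKR1C1 had changes of -0.55, 0.43 and -0.43 on the log2 scale and were no longer called, while NNT stayed called at -1.12.

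The other 2 were TP-472 replicate 4, the highest of its group for TFRC (0.894, with 702 CPM beside 668 to 672 CPM) and for SESN3 (0.895, with 210.4 CPM beside 183 to 186 CPM). Neither gap is large beside the difference between the groups.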

How the results depend on the processing

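All genes called differentially expressed numbered 3789, and from 2690 (without TP-472 replicate 3) to 4223 (without vehicle replicate 2) over the left-out libraries. In every alternative the 3 higher members were HMOX1, SRXN1 and TXNRD1, whose log2 fold changes ranged over 1.52 to 1.91, 0.99 to 1.16 and 0.78 to 1.03. The count of lower members, NQO1 alone, was 0 to 1 over the left-out libraries and 0 with the replicate block, and NQO1 was called in 13 of 17 alternatives, at -0.83 to -0.58. Other pathway genes called higher ran from 11 to 18 and lower from 5 (without TP-472 replicate 2) to 13 over the left-out libraries. Signs changed for 2 genes without a call. KEAP1 stood at 0.075 with the GC trend removed. NFE2L2 stood at -0.061 with the GC trend removed, -0.00075 with total count scaling, -0.015 without TP-472 replicate 4 and -0.025 without vehicle replicate 3, with a range of -0.025 to 0.090 over the left-out libraries. The cause of these changes was not tested. Deviations of same-numbered libraries from their group means correlated at -0.06, 0.12, -0.17 and -0.18. Vehicle replicate 3 has a part in every vehicle deviation through the group mean. These values therefore cannot decide whether same-numbered libraries were handled together. With the replicate block, 3055 genes were called, and 15 other pathway genes were higher and 6 lower.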
